A study of Homo sapiens with 2 samples.

Results

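The mitogen-activated protein kinase (MAPK) cascade and its early target genes were followed in 2 RNA-seq libraries of PLC-8024, a human hepatocellular carcinoma (HCC) cell line. The genes were taken by symbol from a list of names: 42 of the 58174 genes in each library carried one of them. The rule sets no threshold on a measured value, but the list was drawn up with earlier results of these data known. One library came from control cells (PLC-8024-CTR, genotype Control), which according to the paper received a control vector. The other came from cells that overexpress growth differentiation factor 1 (PLC-8024-GDF1), a ligand of the transforming growth factor beta superfamily. The overexpressing cells had been made by lentiviral transduction and selected with puromycin, so they are 1 selected population of 1 line. The methods do not describe the selection of the control-vector cells separately. Each condition has 1 library. No difference below therefore has a replicate check, no test or p-value is given, and every comparison describes these libraries rather than the conditions.

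In the classical branch of the cascade, the adaptor GRB2 brings the exchange factor SOS1 to the membrane, SOS1 loads RAS with GTP, and RAS recruits the RAF kinases. RAF phosphorylates MEK, and MEK phosphorylates ERK. Parallel branches lead to the stress kinases JNK and p38. Active ERK switches on immediate early genes such as EGR1 and FOS within minutes, and it also switches on its own brakes. These are the dual-specificity phosphatases (DUSP), which remove the activating phosphates, and the Sprouty and SPRED proteins, which act on RAS and RAF. Transcript levels of the kinases say nothing about their phosphorylation, which RNA-seq does not measure.

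Promoters of 4 members are shown as examples of both directions of change: EGR1, DUSP6 and SPRY2, which were lower in PLC-8024-GDF1, and IER2, which was much higher. They are not the members with the largest changes in order, and MAPK13, the lowest, is not shown. Each is the 250 bases before the first-listed RefSeq start, 5′ to 3′ on the gene's strand, from RefSeq on GRCh38.p14. EGR1 is at chr5:138465229-138465478 (plus strand), DUSP6 at chr12:89352502-89352751 (minus), SPRY2 at chr13:80341127-80341376 (minus) and IER2 at chr19:13150161-13150410 (plus). Capitals mark matches on either strand to the CArG box of serum response factor, the AP-1 site (TGACTCA or TGAGTCA), the cyclic AMP response element (TGACGTCA), an ETS core (CCGGAAG), an EGR site (GCGGGGGCG) and a SMAD box (GTCTAGAC). A match is a description of the letters and not evidence of binding.
EGR1: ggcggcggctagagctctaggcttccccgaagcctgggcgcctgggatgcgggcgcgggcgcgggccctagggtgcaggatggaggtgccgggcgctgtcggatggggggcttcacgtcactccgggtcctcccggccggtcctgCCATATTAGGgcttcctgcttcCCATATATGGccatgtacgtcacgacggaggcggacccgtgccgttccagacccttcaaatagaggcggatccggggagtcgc
DUSP6: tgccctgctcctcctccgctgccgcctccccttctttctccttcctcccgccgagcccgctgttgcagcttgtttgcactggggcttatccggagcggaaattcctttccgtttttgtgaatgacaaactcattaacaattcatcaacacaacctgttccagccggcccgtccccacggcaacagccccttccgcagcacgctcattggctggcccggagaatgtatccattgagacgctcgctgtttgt
SPRY2: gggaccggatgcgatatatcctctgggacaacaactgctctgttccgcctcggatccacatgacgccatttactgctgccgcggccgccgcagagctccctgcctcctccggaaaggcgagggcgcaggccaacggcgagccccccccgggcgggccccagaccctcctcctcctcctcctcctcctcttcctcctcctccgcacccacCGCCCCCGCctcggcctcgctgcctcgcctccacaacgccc
IER2: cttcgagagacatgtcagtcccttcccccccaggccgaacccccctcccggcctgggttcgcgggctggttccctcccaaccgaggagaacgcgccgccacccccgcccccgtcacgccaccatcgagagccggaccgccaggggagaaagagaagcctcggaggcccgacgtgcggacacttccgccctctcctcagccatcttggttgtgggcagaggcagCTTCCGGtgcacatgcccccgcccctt

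Promoter windows of 300 bases, which reach 50 bases past the start, were found for 35 of the 42 members and for 9597 of the genes compared, and the shares below are of the latter. The EGR1 window held 2 CArG boxes, at -105 to -96 and at -83 to -74 from the start, and no other member's window held one, against 0.948% of the windows of genes compared. The SPRY2 window held 1 EGR site, on the reverse strand at -41 to -33, and the IER2 window held 1 ETS core, also on the reverse strand, at -27 to -21. EGR sites were found in 6 of the 35 members' windows (GRB2, MAP2K4, MAPK3, MAPK6, MAPK8 and SPRY2), against 8.27%. ETS cores were found in 3 (HRAS, IER2 and NRAS), against 19.5%. AP-1 sites were found in FOSL2 and MAP2K3, against 3.09%, and cyclic AMP response elements in DUSP1 and JUND, against 3.28%. The TATA sequence (TATAAA) was found in DUSP1, FOS and FOSB, against 5.41%. No member's window held the SMAD box, which was present in 0.135%. Among all 27305 windows, whether or not the gene was compared, the shares were 1.29% for the CArG box, 5.02% for the EGR site, 10.7% for the ETS core, 4.92% for the AP-1 site, 1.98% for the cyclic AMP response element, 12.0% for TATA and 0.201% for the SMAD box. The DUSP6 window held none of the motifs searched. For 10 members more than 1 start is listed, and only the first was searched.

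The values are TPM, transcript levels scaled by gene length and by the library total, so that levels of different genes can be set side by side. They keep no sequencing depth, so no counting error can be given. Each library is bulk RNA, so fewer expressing cells and less RNA per cell cannot be told apart. The overexpressed gene was examined first. GDF1 had 2.1 TPM in the control library against 4.64 TPM after overexpression, while CERS1, which shares its locus and exons with GDF1, went from 13.3 to 9612 TPM. All 9 liver lineage markers examined reached 1 TPM in PLC-8024-CTR. Lower by over 2-fold in PLC-8024-GDF1 were 5 of them (AFP, ALB, APOA1, HNF4A and TTR), beside 9.61% of all genes compared. APOB and SERPINA1 were lower within 2-fold. KRT8, with 1424 and 1777 TPM, and KRT18, with 1005 and 1224 TPM, were higher. With the median change of all genes set to 0, 3 of the 9 were lower by over 2-fold, beside 6.02%. Whether the lower liver markers have a part in the changes of the members was not tested. Of 9 markers of blood, endothelial and mesenchymal cells, 8 were under 1 TPM in both libraries and PECAM1 had 23.2 and 22.2 TPM. Mitochondrial transcripts made up 16.3% of TPM in PLC-8024-CTR and 14.9% in PLC-8024-GDF1.

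A change is given as log2 of (TPM + 1) in PLC-8024-GDF1 over (TPM + 1) in PLC-8024-CTR, which understates the change of genes with low TPM. A gene is said to have risen or fallen only where it passed 2-fold, that is, a log2 change over 1 or under -1. A gene was compared where 1 of its values, or both, reached 1 TPM. All 42 members and 14929 genes in all met that minimum. The median log2 change of those 14929 genes was -0.20, and member changes are best read against it.

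Most members were lower in PLC-8024-GDF1. Of the 42, 33 had a negative log2 change, against 63.3% of all genes compared, and the median of the members was -0.60. This is -0.40 relative to the median of all genes. In all, 8 members fell over 2-fold (MAPK13, DUSP6, SPRY2, SPRY4, SPRED2, EGR1, IER3 and ETV5), which is 19% of them, while 9.61% of all genes did so. In contrast, 3 members rose over 2-fold (MAP2K2, MAPK14 and IER2), which is 7.14%, against 4.82% of all genes. The other 31 stayed within 2-fold. With the libraries rescaled so that the median of all genes is 0, 30 members had a negative change, the same 3 rose, against 7.35% of all genes, and 4 fell (DUSP6, MAPK13, SPRY2 and SPRY4), against 6.02%. Another 4 members lay just inside the limit: DUSP5 at -0.99, MAP2K3 at -0.98, DUSP1 at -0.96 and GRB2 at -0.94. The mildest fall that was counted was that of ETV5, at -1.02.

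**Figure D1:**
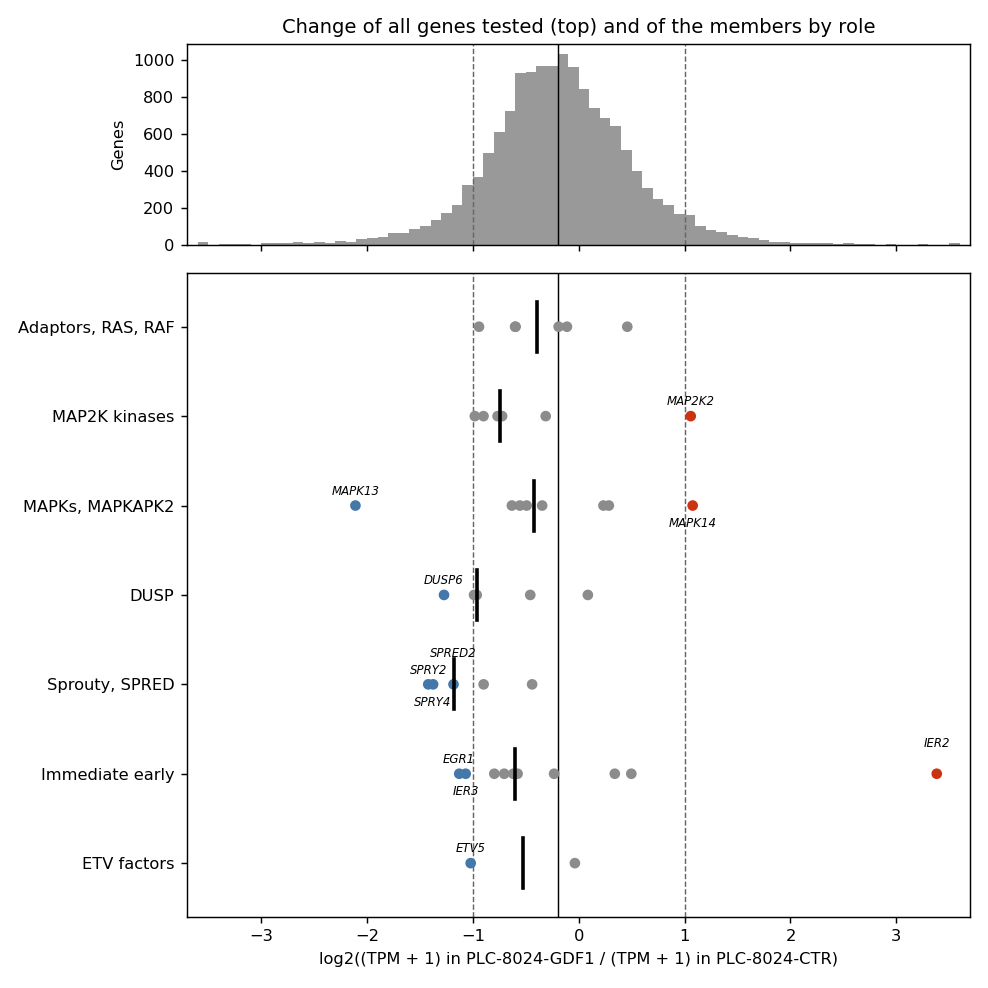
Change of the members by role. The top panel is a histogram of the log2 change of the 14929 genes compared, with changes beyond 3.6 in either direction put in the end bars; below, each point is 1 member in 1 pair of libraries, blue where it fell and red where it rose over 2-fold (dashed lines) and grey within it, short bars are group medians and the long line is the median of all genes (-0.20). All 5 Sprouty and SPRED genes lie left of that line, and IER2 stands alone at 3.38.

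The upstream part of the cascade (adaptors, RAS and RAF), where GRB2 was at -1.09 as a plain ratio, held no member past 2-fold with 1 added to TPM. HRAS, the most abundant of them, had 117.1 TPM in the control and 102.5 TPM after overexpression (log2 change -0.19). NRAS, its close relative, had 14.2 and 9.0 TPM (-0.60). HRAS thus supplied 89.2% of the summed HRAS and NRAS level in the control library and 91.9% in the other. Of the RAF kinases, ARAF had 57.1 and 52.8 TPM (-0.11). BRAF, the kinase with the strongest activity towards MEK, had 3.01 and 1.65 TPM (-0.60). ARAF gave 95% and 97.0% of their sum, so both pairs were dominated by 1 gene in both libraries. GRB2, the adaptor, had 9.56 and 4.50 TPM (-0.94), whereas SOS1, the exchange factor it binds, had 1.22 and 2.05 TPM (0.46). SOS1 was the only one of the 6 to be higher in PLC-8024-GDF1 as deposited; after rescaling to a median of 0, HRAS and ARAF were slightly higher too, at 0.0088 and 0.087.

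The kinases that phosphorylate MAPKs split by gene. MAP2K2, which encodes MEK2, rose from 267.1 to 557.2 TPM (log2 change 1.06). It lies on chromosome 19 (chr19:4090319-4124119, minus strand, GRCh37). MAP2K1, which encodes MEK1, had 15.4 and 7.81 TPM (-0.90). The ratio of MAP2K2 to MAP2K1 was 17.3 in the control library and 71.4 in PLC-8024-GDF1, and the summed level of the pair went from 282.5 to 565.0 TPM. MAP2K2 was the most abundant member of all in PLC-8024-GDF1 and the third most abundant in PLC-8024-CTR. The kinases upstream of p38 were both lower, MAP2K3 with 38.3 and 18.9 TPM (-0.98) and MAP2K6 with 4.94 and 3.78 TPM (-0.31). So were those upstream of JNK, MAP2K4 with 8.08 and 4.34 TPM (-0.77) and MAP2K7 with 4.92 and 2.58 TPM (-0.72). The summed level of the p38 activators was 43.2 and 22.7 TPM, and that of the JNK activators 13.0 and 6.93 TPM. With 1 added to TPM none of these 4 passed 2-fold, while MAP2K3 passed it as a plain ratio (-1.02). With the trend on GC content removed MAP2K6 was at 0.12.

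Among the MAPKs, 2 of the 4 p38 genes moved in opposite directions. MAPK14, which encodes p38 alpha, rose from 3.75 to 9.02 TPM (log2 change 1.08). MAPK13, which encodes p38 delta, fell from 6.95 to 0.844 TPM (log2 change -2.11), the lowest change of any member. The control level was 8.24 times that in PLC-8024-GDF1. The summed level of this pair was 10.7 and 9.86 TPM. Both were scarce beside the other p38 genes, which are not members: MAPK12 (p38 gamma) had 44 and 47.6 TPM (0.11) and MAPK11 (p38 beta) had 14.4 and 19.5 TPM (0.42). Of the sum of all 4 genes, 69.1 and 77.0 TPM, MAPK13 supplied 10.1% and 1.10% and MAPK14 5.43% and 11.7%. MAPK14 and MAPK13 are neighbours on the plus strand of chromosome 6 in GRCh37, MAPK14 at chr6:35995559-36079013 and MAPK13 at chr6:36095586-36112301, 16.6 kb apart, and their annotated exons do not overlap.

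MAPK3, which encodes ERK1, was abundant and within 2-fold, with 170.7 and 208.1 TPM (0.28). The atypical kinase MAPK6 (ERK3) had 8.49 and 5.13 TPM (-0.63) and MAPK7 (ERK5) had 8.17 and 5.52 TPM (-0.49). The JNK genes differed in direction without passing 2-fold. MAPK8 had 3.38 and 1.98 TPM (-0.56) and MAPK9 had 12.0 and 14.3 TPM (0.23), and their sum was 15.4 and 16.3 TPM. MAPKAPK2, a kinase that p38 activates, had 63.9 and 50.1 TPM (-0.35).

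**Figure D2:**
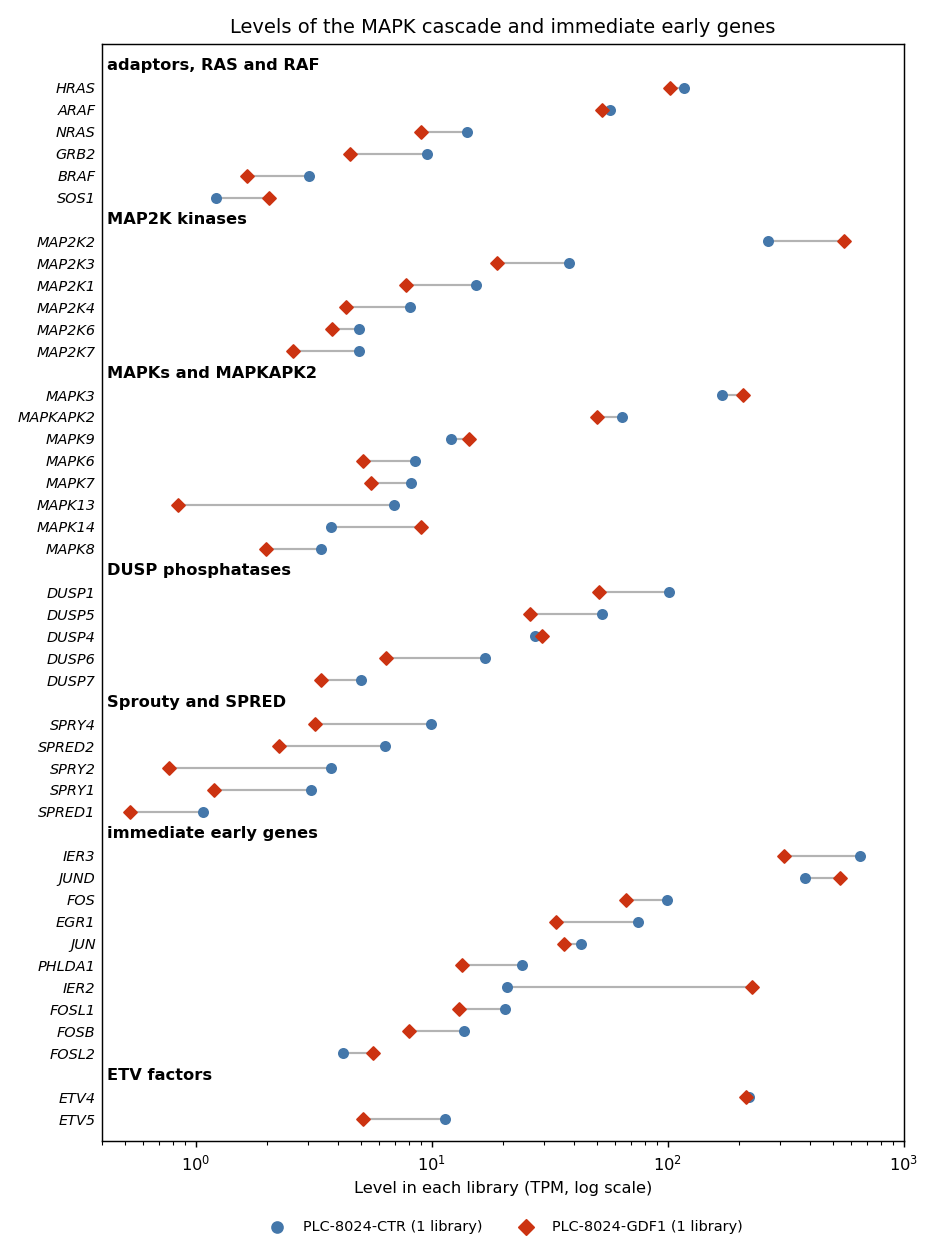
Level of each member in TPM on a log axis, by role and sorted within a role by the control library (blue circles, PLC-8024-CTR; red diamonds, PLC-8024-GDF1; 1 library each, no error bars). MAP2K2, MAPK14 and IER2 have the diamond well to the right of the circle, and most of the phosphatase, Sprouty and SPRED genes have it to the left.

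Of the 10 DUSP, Sprouty and SPRED members, joined into 1 group after their values were seen, 4 fell over 2-fold and none rose, beside 9.61% and 4.82% of all genes. A negative change was found in 9 of them, and the median log2 change was -0.98 against -0.20 for all genes. The 7 further genes of these families that met the minimum held none past 2-fold and had a median of -0.41. Of these 7, 5 were lower and 2 higher. DUSP9, the most abundant of those, had 403.6 and 304.1 TPM (-0.41), and DUSP16 came close to 2-fold with 16.8 and 8.12 TPM (-0.97). DUSP14 had 22.9 and 14.8 TPM (-0.59) and DUSP22 had 29.8 and 22.1 TPM (-0.41). The 2 that were higher were DUSP3, with 22 and 25.3 TPM (0.19), and DUSP8, with 3.44 and 5.60 TPM (0.57). DUSP6, a cytoplasmic phosphatase specific for ERK, fell from 16.9 to 6.41 TPM (log2 change -1.27). It is on chromosome 12 (chr12:89741012-89746278, minus strand, GRCh37). DUSP7, a relative that also acts on ERK, had 5.02 and 3.38 TPM (-0.46). DUSP5, a nuclear phosphatase for ERK, had 52.9 and 26.2 TPM (-0.99), and DUSP1, which acts on p38 and JNK as well, had 100.9 and 51.3 TPM (-0.96). With 1 added to TPM, both came close to 2-fold without passing it, while DUSP5 passed it as a plain ratio (-1.02). DUSP4, a further nuclear phosphatase, was the exception with 27.5 and 29.2 TPM (0.09), so its level went from 1.62 to 4.56 times that of DUSP6. The 5 member phosphatases together had 203.2 TPM in the control library and 116.4 TPM in PLC-8024-GDF1.

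All 5 Sprouty and SPRED genes were lower, and 3 of them fell over 2-fold. SPRY2 fell from 3.75 to 0.773 TPM (log2 change -1.42), so the control level was 4.85 times higher. SPRY4 fell from 9.91 to 3.21 TPM (-1.38) and SPRED2 from 6.36 to 2.24 TPM (-1.18). These genes lie on chromosomes 13, 5 and 2. SPRY1 had 3.09 and 1.2 TPM (-0.90) and SPRED1, the scarcest member of all in both libraries, had 1.07 and 0.529 TPM (-0.44). Their summed level was 24.2 TPM in the control and 7.95 TPM after overexpression (log2 change of the sum -1.49). The group had low TPM, so the added 1 weighs on its values: SPRED2, which is also the median of the group, was at -1.50 as a plain TPM ratio rather than -1.18. After rescaling to a median of 0, SPRED2 was at -0.98 and no longer past 2-fold.

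The immediate early genes did not move as 1 block. IER2, which encodes a nuclear protein, rose from 20.9 to 227.4 TPM. The ratio was 10.9 and the log2 change 3.38, which ranked 12 from the top among the 14929 genes. It is on chromosome 19 (chr19:13261225-13265725, plus strand, GRCh37). IER3, an early gene linked to cell survival, was the most abundant member in the control library and fell from 651.9 to 310.4 TPM (-1.07). EGR1, a zinc finger factor and a classical ERK target, fell from 74.9 to 33.7 TPM (-1.13). The levels of IER2 and IER3 came together, since the ratio of IER2 to IER3 was 0.032 in the control library and 0.733 in PLC-8024-GDF1. After rescaling, EGR1 was at -0.93 and IER3 at -0.87, while IER2 was at 3.58.

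The FOS family, whose proteins pair with JUN proteins to form AP-1, stayed within 2-fold. FOS had 99.5 and 66.4 TPM (-0.58), FOSB 13.7 and 8.03 TPM (-0.70) and FOSL1 20.5 and 13.0 TPM (-0.62). FOSL2 was higher, with 4.22 and 5.61 TPM (0.34). Summed, the 4 genes had 138.0 and 93.0 TPM. Of the JUN members, JUN had 43.1 and 36.5 TPM (-0.23) and JUND had 382.1 and 539.6 TPM (0.50). JUNB, which is not a member, had the highest level of the AP-1 genes in the control library, with 500.8 and 352.2 TPM (-0.51). With JUNB counted, the FOS and JUN genes summed to 1064 and 1021 TPM, of which JUND made up 35.9% and 52.8% and JUNB 47.1% and 34.5%. The 6 members alone summed to 563.2 and 669.1 TPM, so the direction of the sum depends on whether JUNB is counted. PHLDA1, another early gene, had 24.1 and 13.4 TPM (-0.80).

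The ETV factors, ETS family proteins switched on by ERK signalling, differed from each other. ETV5 fell from 11.4 to 5.10 TPM (log2 change -1.02), the smallest fall counted, and it was within 2-fold after rescaling (-0.82) and with the GC trend removed (-0.80). ETV4 was abundant and close to its control level, with 220.5 and 215.0 TPM (-0.04 as deposited and 0.16 after rescaling). The ratio of ETV4 to ETV5 was 19.4 and 42.1.

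The same reading was made for a signature of 10 transcripts widely used as a measure of ERK output (PHLDA1, SPRY2, SPRY4, DUSP4, DUSP6, CCND1, EPHA2, EPHA4, ETV4 and ETV5), 7 of which are members. EPHA4 was listed at 0.0001 TPM in both libraries, the value deposited in place of 0. Of the other 9, 5 fell over 2-fold and none rose, beside 9.61% and 4.82% of all genes, and the median log2 change was -1.02. After rescaling 3 of the 9 fell, beside 6.02% of all genes. EPHA2, a receptor tyrosine kinase, fell from 25.1 to 10.8 TPM (-1.14). CCND1, which encodes cyclin D1, had 60.3 and 69.7 TPM (0.21). The signature was therefore mixed, with 3 genes near the control level (CCND1, DUSP4 and ETV4) and the others lower. As most of it overlaps the members, it is not a separate reading of the data.

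Of 105 other genes of the pathway, CCND1, EPHA2 and EPHA4 of the signature among them, 86 met the minimum of 1 TPM. In this list 11 fell, which is 12.8%, and 4 rose, which is 4.65%, beside the 9.61% and 4.82% of all genes given above, and the median log2 change was -0.46. The share that rose was close to that of all genes. Among RAS proteins, adaptors and scaffolds, RRAS2, a RAS relative, fell from 12.0 to 3.98 TPM (-1.39), and the scaffolds LAMTOR3 and MAPK8IP3 fell from 6.31 to 2.51 TPM (-1.06) and from 20.8 to 8.55 TPM (-1.19). IQGAP1, a scaffold for several kinases, rose from 9.50 to 28.2 TPM (1.47). In the tier above the MAP2Ks, MAP3K11 rose from 25.5 to 80.5 TPM (1.62) and was the only one of 11 past 2-fold. Downstream of ERK, the kinase RPS6KA3 (RSK2) fell from 15.5 to 6.23 TPM (-1.19).

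Of 28 early and ERK-responsive genes in the same list, CCND1 and EPHA2 among them, 24 were below 0, beside 63.3% of all genes. Past 2-fold, 5 fell, beside 9.61% of all genes, and none rose, with a median of -0.58. After rescaling, 21 of the 28 were below 0, beside 50% of all genes. The highest level among those that fell was that of AREG, a ligand of the epidermal growth factor receptor, which went from 196.4 to 62.9 TPM (-1.63). ZFP36 and ZFP36L1, whose products bind AU-rich elements and speed the decay of early transcripts, fell from 51.6 to 16.9 TPM (-1.55) and from 18.5 to 6.62 TPM (-1.36). GADD45A, a stress gene, fell from 21.7 to 6.71 TPM (-1.56), and EPHA2, given above, completes the group. Of 10 transcription factors that the kinases act on, all had a negative change as deposited, beside 63.3% of all genes. After rescaling, 9 of the 10 did, beside 50%. Past 2-fold, 2 of the 10 fell, beside 9.61% of all genes, among them ETS2 with 28.9 and 10.3 TPM (-1.40).

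**Figure D3:**
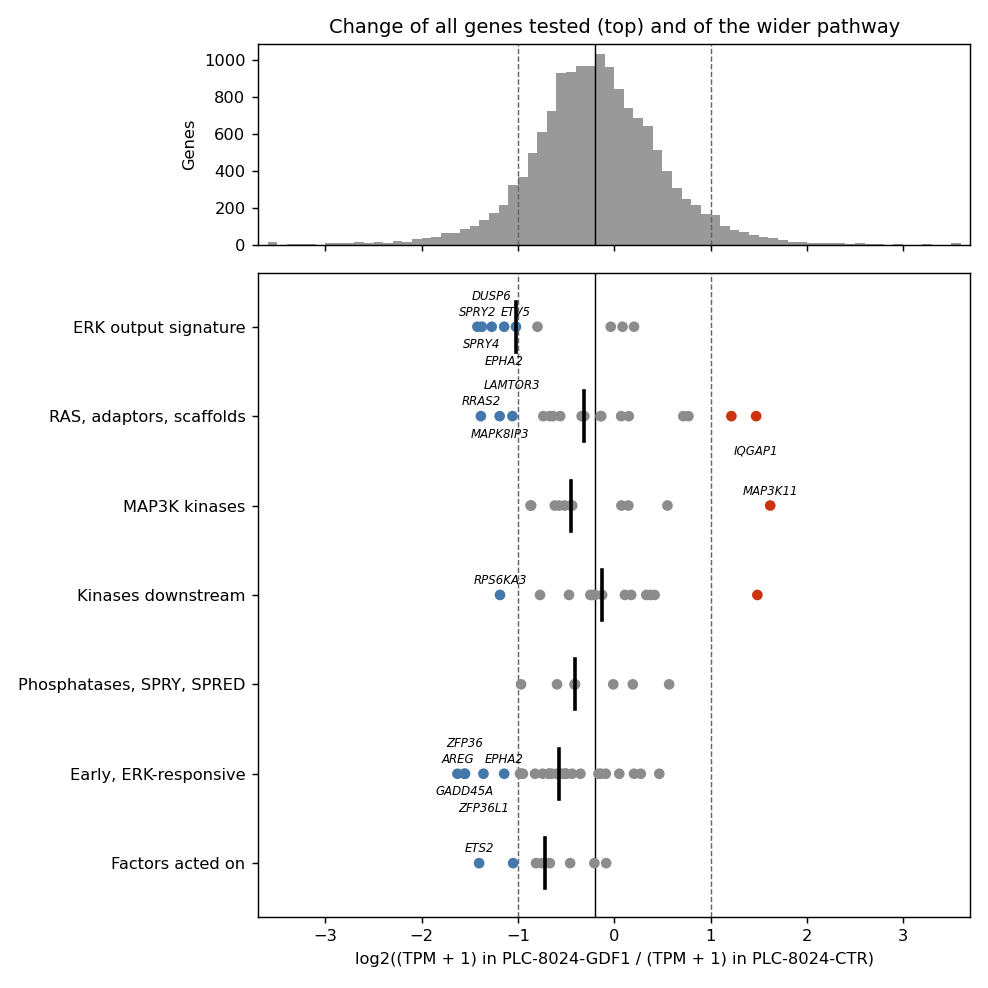
Change of the ERK output signature and of the other pathway genes by role, drawn as in the plot of members by role (1 library per condition, blue fell and red rose over 2-fold, grey within it, short bars are medians, end bars of the histogram hold changes beyond 3.6). Labels name the genes past 2-fold with at least 5 TPM in either library; the factors the kinases act on lie below 0 as deposited, and kinases downstream centre near the median of all genes.

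The change also followed base composition across all genes, so it was read beside the members. Over the 14640 genes with a GC value the median log2 change was -0.45 in the quintile of genes with least GC in the longest transcript and 0.11 in the quintile with most. Members spanned 36.3% to 69.9% GC, with a median of 52.5% against 49.6% for all genes. Their median lay below that of all genes in each quintile, with differences of -0.11, -0.45, -0.90, -0.57 and -0.22 from low to high GC, with 7, 6, 8, 10 and 11 members. Across the 42 members, which share both libraries and are not independent, Spearman's rho between GC content and change was 0.22, and it was 0.29 across all genes. With the trend removed, the same 3 members rose (IER2 3.33, MAPK14 1.35 and MAP2K2 1.05), against 6.29% of all genes, 7 fell, against 6.05%, and the median was -0.41. The median of the Sprouty and SPRED genes was then -1.0 and that of the DUSP genes -0.87.

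Exons of 6 members overlap exons of another gene that was compared, in each case on the opposite strand, and whether counting used strand is not given in the sources used here. An antisense RNA at 2.41 and 2.81 TPM shares 30.7% of the IER2 exon bases, and one at 8.79 and 7.01 TPM shares 32.6% of those of IER3. Both RNAs were listed below the member they overlap. For 3 members the overlapping gene was the more abundant one. BRAF shares 5.29% of its exon bases with NDUFB2, which had 197.9 and 265.0 TPM. MAPK7 shares 4.68% with B9D1, which had 38.1 and 41.5 TPM. MAP2K1 shares 3.34% with SNAPC5, which had 36.1 and 32.4 TPM, and 20.5% with an antisense RNA at 4.52 and 4.70 TPM. ETV4 shares 1.93% with DHX8, which had 47.0 and 46.4 TPM. Without strand, reads in the shared bases cannot be told apart, and the values of these 6 members are uncertain to that extent.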

How the data were processed

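The authors sequenced poly(A) RNA of the control and the GDF1-overexpressing cells as paired-end libraries, 1 each. According to the labels and the methods, reads were checked with FastQC 0.11.2, trimmed with Trimmomatic 0.36, aligned to hg19 with HISAT2 2.1.0 and quantified with StringTie 1.3.3b, and the authors deposited 1 TPM value per gene and library, with 0.0001 in place of 0. The methods name a RefSeq annotation, whereas the deposited tables list Ensembl identifiers. Read counts were not analysed here. TPM keeps no depth, so no interval or floor was computed.

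The tables were joined on the gene identifier and members were found by symbol, 1 row each. Log2 changes used a pseudocount of 1, a minimum of 1 TPM in either library and a limit of 2-fold. Groups are single libraries, so no test was run. Positions, GC content and length (longest transcript) came from GENCODE v44 on GRCh37, which held 55726 of the 58174 identifiers and all 42 members. The GC trend was a lowess fit with a span of 0.3. Promoters came from RefSeq on GRCh38.p14, and no coordinates were moved between builds. Alternatives were a pseudocount of 0.1, the plain TPM ratio, rescaled TPM, totals without GDF1, CERS1 and mitochondrial transcripts, the GC trend removed, and other TPM minimums. Scripts ran under Python 3.11.15 with statsmodels 0.14.6, pandas 2.3.3, numpy 2.4.6 and matplotlib 3.10.9, and were tested on simulated data.

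All members are described. Named besides them were GDF1, CERS1, lineage markers, the ERK output signature, and other pathway genes past 2-fold with at least 5 TPM in either library. Other p38, JUN and DUSP genes, genes that overlap or neighbour a member, and the marker PECAM1 were named outside this rule, after their values were seen. The members and lists were chosen with earlier results of these data known.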

Additional observations from a re-analysis of the deposited data

How the results depend on the processing

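No paired analysis was possible because the labels give no replicate numbers and a single library stands for each condition. Counts were taken as alike within 1.5 times and medians within 0.1 on the log2 scale. The number of members that rose was 3 under each of the 8 alternatives, and MAP2K2, MAPK14 and IER2 were the genes every time. The number that fell, 8 at first, was 13 with the plain ratio and 12 with a pseudocount of 0.1, where 16.1% and 15.5% of all genes fell instead of 9.61%. DUSP5, MAP2K3, GRB2 and SPRY1 were added under both settings, and SPRED1 with the plain ratio only. The number was 4 with rescaled TPM (6.02% of all genes), where every change is taken from the median of all genes (-0.20). Other pathway genes that fell numbered 18, 19 and 6 under the pseudocount of 0.1, the plain ratio and rescaling, against 11, and those that rose numbered 2 instead of 4 with at least 5 TPM. The member median of -0.60 was -0.73 with the pseudocount of 0.1, -0.75 with the plain ratio, -0.40 with rescaled TPM and -0.41 with the GC trend removed. The median of the other pathway genes, -0.46, was -0.27 with rescaled TPM, -0.28 with the GC trend removed and -0.30 with no minimum. That of the ERK output signature, -1.02, was -1.14, -1.16, -0.82 and -0.80 under the first 4 of these settings in the order given for the member median, and -0.91 both with at least 5 TPM and with no minimum. No member past 2-fold changed sign under any of the 5 alternatives run on single members. Of the members within 2-fold, HRAS, ARAF and ETV4 changed sign with rescaled TPM and MAP2K6 with the GC trend removed. TPM values carry no depth, which limits the genes with low TPM most, SPRED1, SPRY1 and SPRY2 among them.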

Other observations

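The surroundings of the members that moved most were read as values, with genes named after their values were seen. Within 100 kb of IER2, 6 other genes met the minimum of 1 TPM, and their median log2 change was 0.08. Only LYL1 rose over 2-fold, from 0.714 to 5.93 TPM (2.02), beside 4.82% of all genes. STX10 had 75.1 and 67.0 TPM (-0.16) and NACC1 had 46.2 and 51.3 TPM (0.15). Around MAP2K2, none of 5 other genes passed 2-fold, and their median was -0.03. Near MAPK13 and MAPK14, BRPF3 had 4.36 and 2.33 TPM (-0.69). Around EGR1, 2 of 5 other genes fell and 1 rose, beside 9.61% and 4.82% of all genes. Those that fell were ETF1, at 40.3 and 11.0 TPM (-1.79), and SNORD63, at 1.13 and 0.0001 TPM (-1.09). SNORD63 was thus barely over the minimum in 1 library and at the value in place of 0 in the other. REEP2 rose, at 0.881 and 7.09 TPM (2.1).

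Promoter windows could be searched for 9597 of the genes compared. Of these, 91 held a CArG box, as EGR1 does, and their median log2 change was -0.31, with 63 below 0. The 315 with a cyclic AMP response element, as in DUSP1 and JUND, had a median of -0.32, and the 1872 with an ETS core, as in IER2, had a median of -0.28. The other motifs searched had medians of -0.28 (EGR site), -0.27 (TATA), -0.23 (AP-1 site) and -0.145 (SMAD box, 13 genes). The median of all 9597 genes with a window was not computed, so no motif is set apart here from the rest. These are medians of 1 pair of libraries, and no difference between them was tested.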
